A study of Mus musculus with 6 samples.

Results

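The mitochondrial carriers of the Slc25 family were taken as all genes whose array probe sets carry a single gene symbol beginning with Slc25a. This gave 33 genes of 12393 genes measured, represented by 65 probe sets, each a group of short probes. Some sets, among them those used for Slc25a26, Slc25a30, Slc25a39 and Slc25a47, carry suffixes of the array maker for probes that may match more than 1 transcript. Whole livers of C57 wild-type mice aged 1 month were used, and the total RNA of each was hybridised to 1 Affymetrix mouse array. Of the 6 mice, 3 had been given an adenoviral vector to overexpress the transcription factor TFEB in the liver, and 3 had not been injected. The labels name no liver given an empty vector and do not give the promoter of the transgene, so injection, vector and TFEB cannot be told apart. TFEB is a regulator of lysosomal and autophagy genes, and the question addressed here is how carrier transcripts of the liver differ with its overexpression.

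Most solutes cannot cross the inner mitochondrial membrane unaided, and Slc25 proteins carry them across, usually as an exchange of one solute for another. In liver they supply ADP and phosphate to ATP synthase and move the intermediates of the urea cycle, of fatty acid oxidation and of lipid synthesis between matrix and cytosol. A few members sit in other membranes, among them Slc25a17 in the peroxisome and Slc25a46 in the outer mitochondrial membrane.

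Values are log2 expression, on which a difference of 1 is a 2-fold change, and differences are injected minus not-injected means of 3 arrays each. A gene was called when limma gave a Benjamini-Hochberg adjusted p under 0.05 over all 12393 genes. Pairs of arrays within a group correlated at 0.992 to 0.998 over all probe sets, and pairs across the groups at 0.974 to 0.988. Tfeb itself differed by 0.05 (adjusted p = 0.716), and since the labels do not give the transgene's sequence, its probe set does not check them. Control transcripts added to the samples read lower in injected livers. Their median difference was -0.44 over 24 poly-A probe sets and -0.32 over 18 hybridisation probe sets. The labels name no batch, and labelling or hybridisation cannot be told apart from injection. Marker lists of cell types were counted against 14.2% of all genes called higher and 13.9% called lower. Hepatocyte markers such as albumin were high in every liver and 0 of the 6 measured were called. Of 8 sinusoidal endothelial markers 4 were higher and 0 lower, and their summed level was 11.80 to 11.96 without injection and 12.31 to 12.56 with it. Of 9 Kupffer cell and macrophage markers 2 were higher and 1 lower, with sums of 13.09 to 13.46 and 13.44 to 13.65. Injected replicate 2 stood apart from the other injected livers: without it 4378 genes were called in place of 3486, the highest count with any single array left out. In whole liver, fewer cells of a type and less RNA per cell cannot be told apart.

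Of the 33 carriers 14 were called (42.4%), where 28.1% of all genes were. Higher in injected livers were 6 (18.2%, against 14.2% of all genes) and lower were 8 (24.2%, against 13.9%). The 14 were spread over most substrate groups, and the rises included every measured carrier of ADP, ATP and phosphate for ATP synthase. The median difference over the 33 was -0.054, and over all genes it was -0.049. Injected and not-injected arrays did not overlap in 20 carriers (60.6%, against 46.2% of all genes), among them all 14 that were called. Injected livers were above the rest in 9 of these (20.1% of all genes) and below in 11 (26.1% of all genes). The number of lower carriers was 5 without not-injected replicate 2, not-injected replicate 3 or injected replicate 3, and the number of higher carriers was 3 without not-injected replicate 3. Without injected replicate 2, 8 carriers were higher and 8 lower, and all 14 kept their call. This liver was the injected liver nearest the not-injected group in 10 of the 14.

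**Figure D1:**
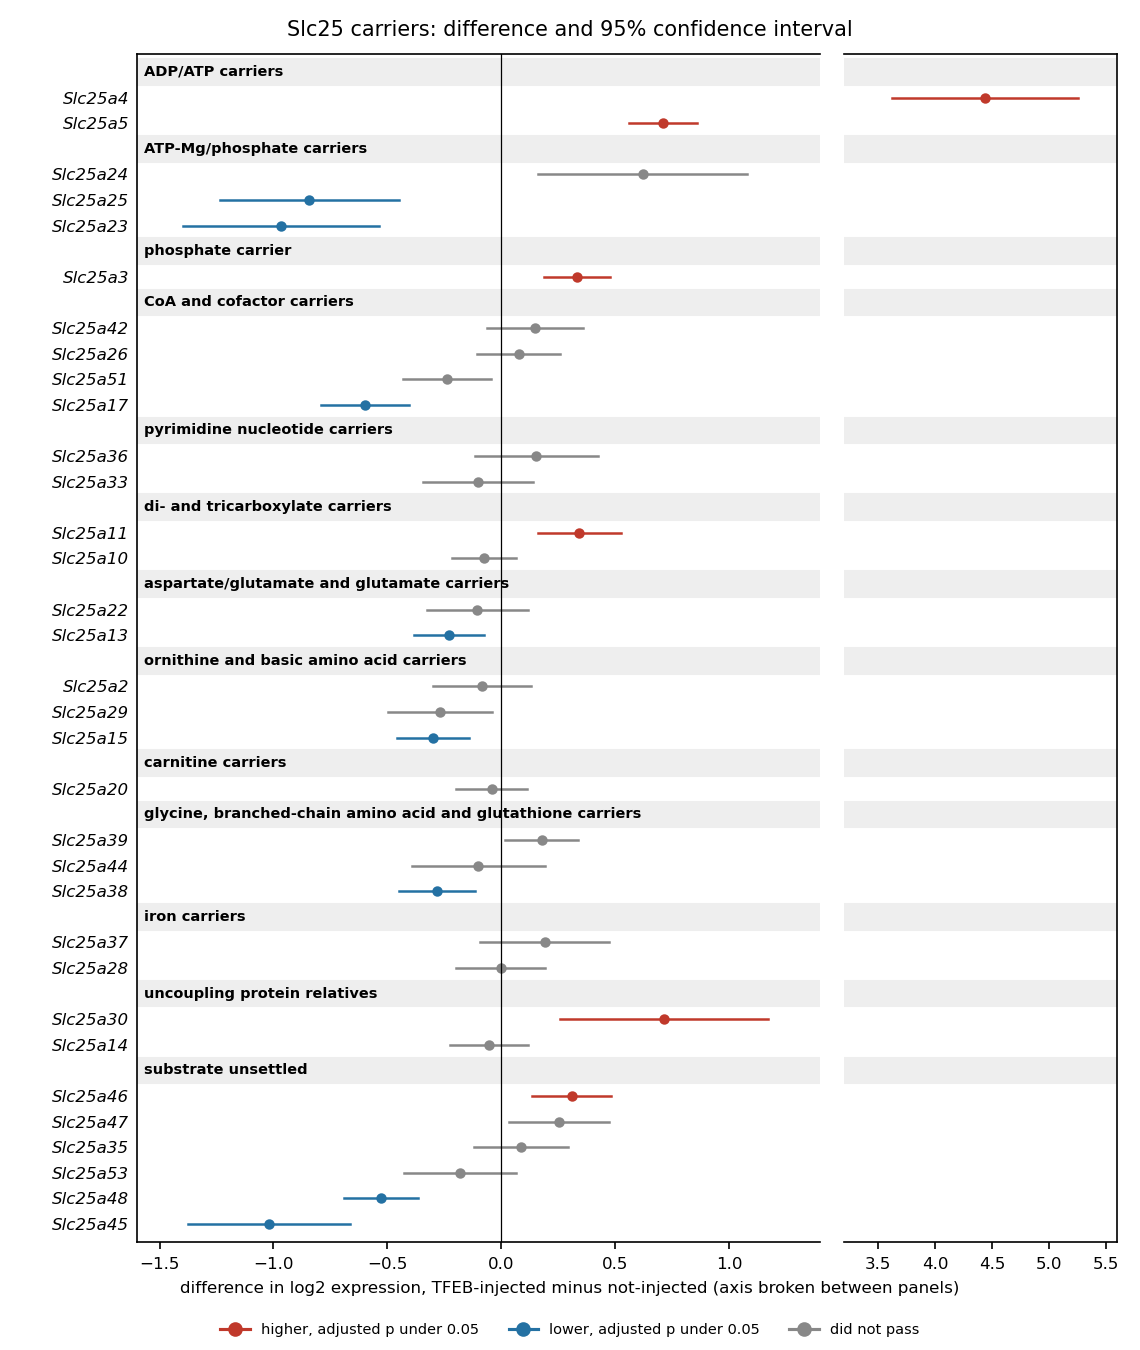
Difference in log2 expression (injected minus not-injected, horizontal axis, broken between panels) of the 33 carriers grouped by substrate, with the 95% confidence interval of the moderated fit from 3 arrays a group. Red points passed as higher, blue points as lower and grey points did not pass. Slc25a4 stands alone at 4.44 in the right panel, and the other carriers lie between -1.02 and 0.71.

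The ADP/ATP carriers showed the largest rise of the family. Slc25a4 encodes the adenine nucleotide translocase typical of heart and skeletal muscle, which exchanges cytosolic ADP for ATP made in the matrix. It read 7.34, 6.90 and 6.90 in the not-injected livers and 11.96, 10.59 and 11.92 in the injected livers. Every injected liver was more than 3 log2 units above every liver that was not injected, and injected replicate 2 was the lowest of the injected. The rise was 21.7-fold (4.44 ± 0.35 on the log2 scale, SE, adjusted p = 0.000259). It ranged from 4.21 without injected replicate 1 to 4.89 without injected replicate 2. Besides this probe set, 2 others rose by 3.93 and 3.88. The remaining probe set read -0.04 and lay below the lower quartile of all probe sets (5.46 or more) on all 6 arrays, so the mean of all 4 probe sets gave a smaller rise of 3.05. Of 6 muscle markers measured, including Ckm and Acta1, 0 were called, where 28.1% of all genes were. All 6 differences were below 0, and 3 markers lay below that quartile on all arrays. Their summed level was 8.28 to 8.36 without injection and 8.07 to 8.18 with it. The part of muscle cells in the carrier results was not tested.

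Slc25a5 encodes the translocase that predominates in liver and in dividing cells. Its level was 13.29, 13.28 and 13.20 without injection and 13.95, 14.02 and 13.92 with it, and the groups lay clearly apart with little spread within either. It rose 1.64-fold (0.71 ± 0.06, SE, adjusted p = 0.000438). All 8 of its probe sets rose, by 0.71 to 0.86. Of these, 6 carry the array maker's suffix for probes that may match other transcripts, and RefSeq lists a pseudogene copy, so their signal may not be specific to this gene. The probe set with the plain suffix rose by 0.86, from 11.21, 11.32 and 11.07 to 11.92, 12.30 and 11.95. Slc25a31, the third translocase of mice, was not analysed here.

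Slc25a3 encodes the phosphate carrier, which brings in the phosphate that ATP synthase joins to ADP. It read 12.78, 12.79 and 12.74 in livers that were not injected and 13.08, 13.07 and 13.16 in injected livers. The groups did not overlap, and the gene rose 1.26-fold (0.33 ± 0.06, SE, adjusted p = 0.00787). Its call, like those of Slc25a4 and Slc25a5, held under all alternatives tried.

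The promoter windows of both translocases are shown because they belong to the carriers with the largest rise and with the highest number of called probe sets. Each runs from 250 bases before the gene start to 50 after it, 5′ to 3′ on the strand of the gene, from RefSeq (GRCm38.p6). Slc25a4 lies on the minus strand at chr8:46211013-46211312 and Slc25a5 on the plus strand at chrX:36795347-36795646. Capitals would mark CACGTG, the E-box core of the element that TFEB is known to bind, which is the same on both strands, and neither window holds it.
Slc25a4: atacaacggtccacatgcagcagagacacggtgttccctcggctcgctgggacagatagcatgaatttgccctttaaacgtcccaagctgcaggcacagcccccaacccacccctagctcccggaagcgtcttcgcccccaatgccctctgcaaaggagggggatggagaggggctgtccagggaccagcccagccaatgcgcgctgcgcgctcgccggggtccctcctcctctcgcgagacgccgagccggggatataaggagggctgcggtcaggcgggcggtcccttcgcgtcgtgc
Slc25a5: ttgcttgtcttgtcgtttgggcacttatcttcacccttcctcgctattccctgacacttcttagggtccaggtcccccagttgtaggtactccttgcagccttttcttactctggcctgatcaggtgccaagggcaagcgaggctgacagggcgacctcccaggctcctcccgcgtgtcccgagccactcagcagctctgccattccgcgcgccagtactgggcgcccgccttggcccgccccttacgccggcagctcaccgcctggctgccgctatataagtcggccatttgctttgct

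Carriers of ATP-Mg against phosphate are regulated by calcium and set the adenine nucleotide content of the matrix. Of the 3 measured, 2 were lower in injected livers (66.7%, against 13.9% of all genes). Slc25a23 read 9.81, 9.79 and 9.84 without injection and 8.65, 9.32 and 8.57 with it. The not-injected livers were nearly equal, while injected replicate 2 lay closer to them than the other injected livers. It fell 1.95-fold (-0.97 ± 0.18, SE, adjusted p = 0.00853). Slc25a25 read 9.80, 9.75 and 9.33 without injection and 8.47, 8.92 and 8.96 with it. Spread was wide in both groups but they did not overlap, and the gene fell 1.79-fold (-0.84 ± 0.17, SE, adjusted p = 0.0101). The falls of Slc25a23 and Slc25a25 did not pass without variance moderation (adjusted p = 0.0724 and 0.0769). Slc25a24, a paralog of these genes, read 4.93, 4.95 and 5.10 without injection and 5.75, 5.13 and 5.97 with it. Its values without injection were under the lower quartile of all probe sets, and its difference of 0.62 (95% confidence interval 0.16 to 1.08) narrowly missed the threshold (limma adjusted p = 0.0512). Without injected replicate 2 it was 0.86 and passed (limma adjusted p = 0.000516). Without any other single array it did not pass, with differences down to 0.44 (limma adjusted p up to 0.146).

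**Figure D2:**
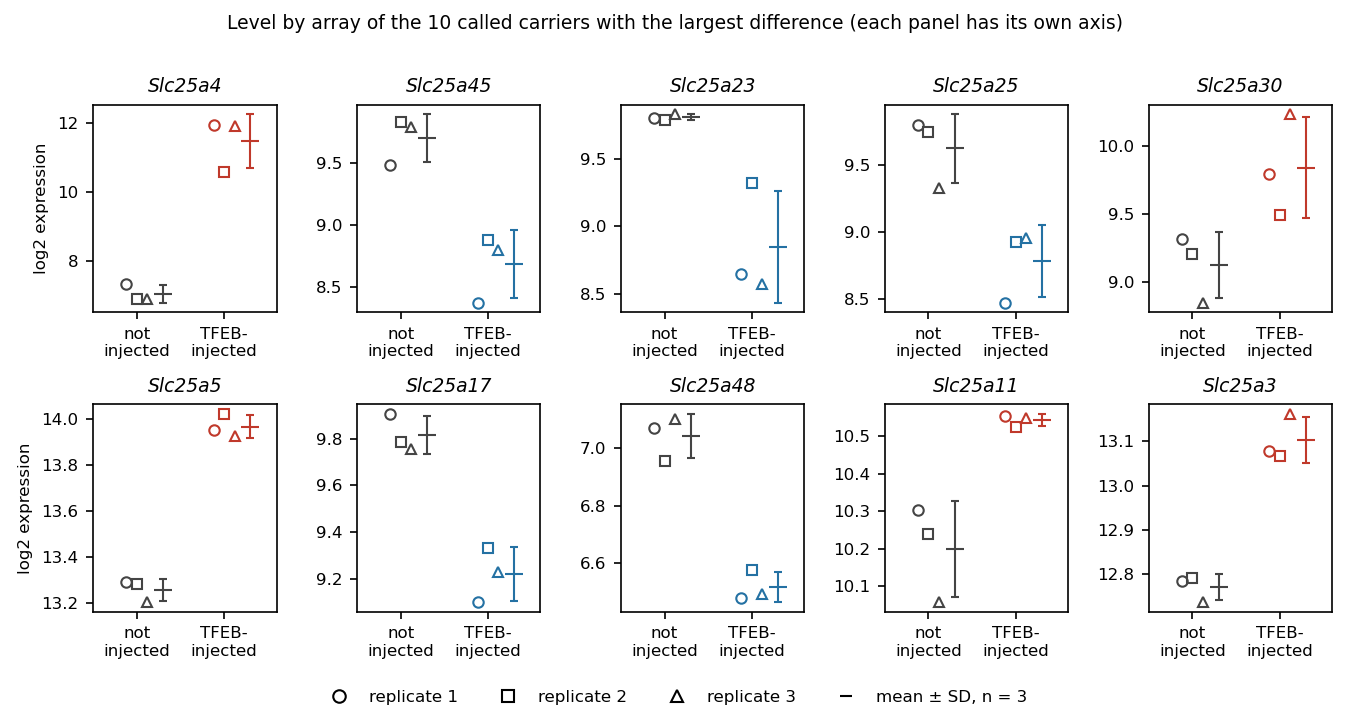
Log2 expression by array (vertical axis, separate in each panel) of the 10 called carriers with the largest difference, with circles, squares and triangles for replicates 1, 2 and 3 and a bar for mean ± SD (n = 3). Groups do not overlap in any panel. Injected replicate 2 is the injected liver nearest the not-injected livers in 8 of the 10 panels, among them Slc25a4 (10.59) and Slc25a23 (9.32).

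Of the 4 carriers of coenzymes 1 was called (25%, near the 28.1% of all genes), and it was lower. Slc25a17 encodes the peroxisomal carrier of coenzyme A and related cofactors. It read 9.91, 9.79 and 9.75 without injection and 9.10, 9.33 and 9.23 with it. All injected livers lay below all livers that were not injected, and the gene fell 1.51-fold (-0.60 ± 0.08, SE, adjusted p = 0.00243). A second probe set below the lower quartile on all arrays read -0.18, and the mean of both was -0.39. The mitochondrial members did not pass. Slc25a42, a carrier of coenzyme A, read 0.15 (95% confidence interval -0.06 to 0.37), Slc25a51, a carrier of NAD, -0.24 (-0.43 to -0.04) and Slc25a26, a carrier of S-adenosylmethionine, 0.08 (-0.11 to 0.26). The difference between the peroxisomal and mitochondrial members was not tested. Of the pyrimidine nucleotide carriers, Slc25a33 read -0.10 (-0.34 to 0.14) and Slc25a36 0.16 (-0.12 to 0.43), and neither passed.

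Among carriers of the intermediates shared by matrix and cytosol, the oxoglutarate/malate carrier was higher and citrin was lower. These carriers form the malate-aspartate shuttle, which brings reducing equivalents of cytosolic NADH into mitochondria. Slc25a11, the oxoglutarate/malate carrier, read 10.30, 10.24 and 10.06 without injection and 10.55, 10.52 and 10.55 with it. The injected livers were nearly equal and above the rest, and the gene rose 1.27-fold (0.34 ± 0.08, SE, adjusted p = 0.0168). Its call was lost without not-injected replicate 3, injected replicate 1 or injected replicate 3 (limma adjusted p 0.051 to 0.0557), and without variance moderation (limma adjusted p = 0.0573). Slc25a13, which encodes citrin, the aspartate/glutamate carrier of liver, fell by 0.23 ± 0.07 (SE, adjusted p = 0.0372). Citrin lost its call without any single array except injected replicate 2 (limma adjusted p 0.0732 to 0.111). The dicarboxylate carrier Slc25a10 read -0.08 (95% confidence interval -0.22 to 0.06) and the glutamate carrier Slc25a22 -0.11 (-0.33 to 0.12), and neither passed.

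The ornithine carrier was lower. Slc25a15 exchanges cytosolic ornithine for citrulline made in the matrix, a step of the urea cycle, and fell by 0.30 ± 0.07 (SE, adjusted p = 0.0168). Its second probe set fell by 0.38. The call was lost without not-injected replicate 2, not-injected replicate 3 or injected replicate 3 (limma adjusted p 0.053 to 0.0678). Slc25a29, a carrier of basic amino acids, read -0.27 (95% confidence interval -0.50 to -0.04) and did not pass, while 1 of its 5 probe sets fell by 0.36. Without not-injected replicate 2 its difference was -0.16. Slc25a2, a second ornithine carrier, lay below the lower quartile on all arrays and read -0.08 (-0.30 to 0.13). The carnitine/acylcarnitine carrier Slc25a20, which takes fatty acyl groups into the matrix for oxidation, read 11.96, 12.02 and 11.90 without injection and 11.87, 11.91 and 11.98 with it. The groups overlapped, and the difference of -0.04 (-0.20 to 0.11) did not pass.

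Windows of the 2 called carriers that hold CACGTG are shown next, with the motif in capitals. They are Slc25a13 on the minus strand at chr6:6217124-6217423 and Slc25a15 on the minus strand at chr8:22398228-22398527, both lower in injected livers. In Slc25a13 the motif begins 125 bases before the gene start, and in Slc25a15 77 bases before it. RefSeq gives Slc25a15 a second start, whose window at chr8:22398572-22398871 holds no CACGTG.
Slc25a13: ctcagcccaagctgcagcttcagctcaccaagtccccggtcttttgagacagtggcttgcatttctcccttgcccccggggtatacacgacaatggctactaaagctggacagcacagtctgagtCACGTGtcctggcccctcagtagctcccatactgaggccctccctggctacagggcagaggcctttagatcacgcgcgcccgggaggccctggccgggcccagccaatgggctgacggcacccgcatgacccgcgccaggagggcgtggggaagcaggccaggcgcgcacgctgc
Slc25a15: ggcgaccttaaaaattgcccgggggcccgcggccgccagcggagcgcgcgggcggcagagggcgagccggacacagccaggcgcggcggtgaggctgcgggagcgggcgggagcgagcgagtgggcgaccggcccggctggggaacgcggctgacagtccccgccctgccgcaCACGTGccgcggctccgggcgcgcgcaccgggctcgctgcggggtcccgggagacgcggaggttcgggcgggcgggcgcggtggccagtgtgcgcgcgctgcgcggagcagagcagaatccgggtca
Windows were found for 26 of the 33 carriers. CACGTG was in 5 of these 26 genes (19.2%) and in 8.09% of all genes with a window of this length. It was in 0 of the 5 higher carriers with a window, in 2 of the 8 lower carriers and in 3 of the 13 that were not called, which were Slc25a14, Slc25a33 and Slc25a36. The longer TCACGTG, searched on both strands and containing CACGTG, was in 4 of the 26 (15.4%) and in 4.29% of all genes with a window. A match is a description of these letters and not a binding site.

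Of the carriers tied to heme, glutathione and branched-chain amino acids, the glycine carrier was lower. Slc25a38, which imports glycine for heme synthesis, fell by 0.28 ± 0.07 (SE, adjusted p = 0.0235), and lost its call without not-injected replicate 2 or 3 or injected replicate 1 or 3 (limma adjusted p 0.0684 to 0.0891) and without variance moderation (limma adjusted p = 0.0519). Slc25a39, a carrier of glutathione, read 0.18 (95% confidence interval 0.02 to 0.34) and Slc25a44, a carrier of branched-chain amino acids, -0.10 (-0.39 to 0.19), and neither passed. The iron carriers Slc25a37 (mitoferrin-1) and Slc25a28 (mitoferrin-2) read 0.19 (-0.09 to 0.47) and -0.0017 (-0.20 to 0.19). Slc25a37 was 8.78 in injected replicate 2 and 8.28 to 8.34 in the other livers. Red blood cell precursors use both Slc25a37 and Slc25a38. Of 6 erythroid markers 1 was called (16.7%, against 28.1% of all genes), the heme synthesis gene Alas2, which fell 3.04-fold. The summed level of these markers was 10.94 to 11.14 without injection and 10.03 to 10.73 with it, with Hemgn and Epb42 below the lower quartile on all arrays. That sum rests mainly on Alas2 (mean 10.28 without injection, 8.68 with it) and Tfrc (9.18 and 9.46, did not pass), so its fall reflects 1 gene. The part of these markers in the carrier results was not tested.

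Slc25a30, a relative of the uncoupling proteins, read 9.31, 9.21 and 8.85 without injection and 9.79, 9.49 and 10.23 with it. Injected livers lay above all others with a wide spread, and the gene rose 1.64-fold (0.71 ± 0.20, SE, adjusted p = 0.0319). A second of its 5 probe sets rose by 0.82, the other 3 did not pass, and the mean of all 5 was 0.41. The call was lost without not-injected replicate 2 or 3 or injected replicate 1 or 3 (limma adjusted p 0.0682 to 0.103) and without variance moderation (limma adjusted p = 0.138). Slc25a14, another relative, read -0.05 (95% confidence interval -0.22 to 0.12) and did not pass. Among the members named otherwise, Ucp3 rose by 0.50 ± 0.15 (SE, adjusted p = 0.0392) and Ucp1, which uncouples respiration in brown fat, read -0.03 (adjusted p = 0.801).

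**Figure D3:**
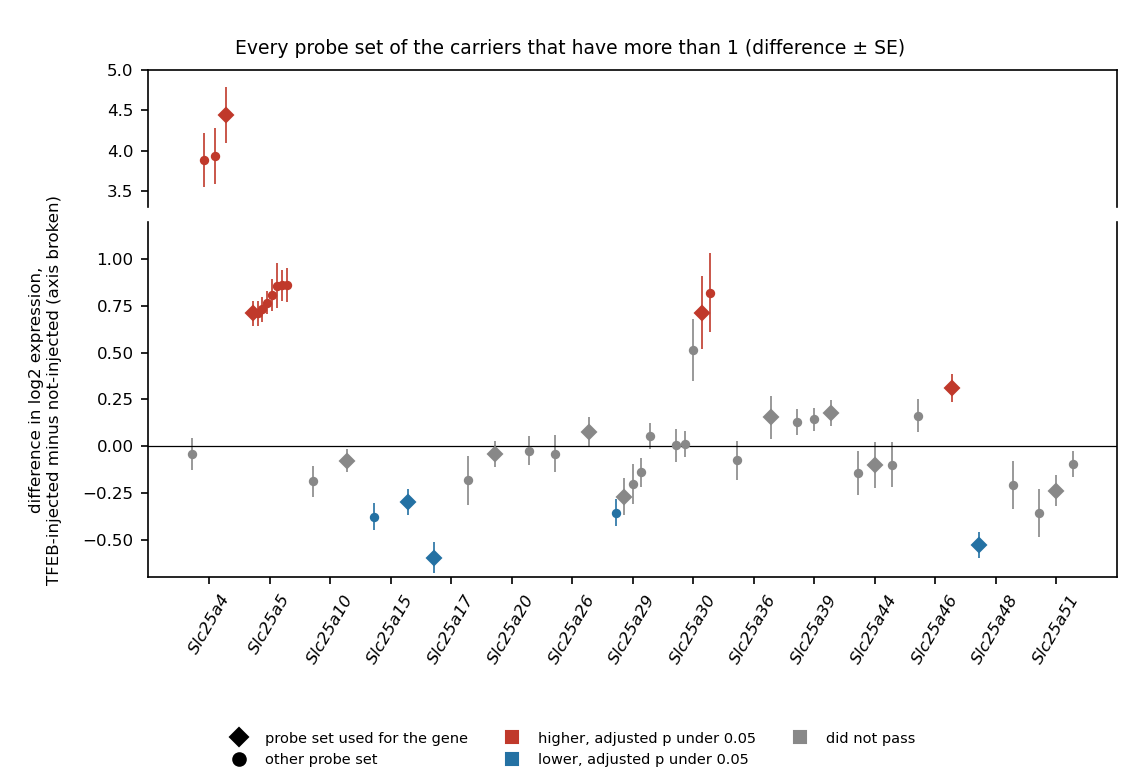
Difference in log2 expression ± SE (vertical axis, broken) for each probe set of the 15 carriers that have more than 1, from a fit over all probe sets, with diamonds for the probe set used for the gene. Red passed as higher, blue as lower and grey did not pass. Slc25a4 has 3 probe sets at 3.88 to 4.44 and 1 at -0.04, all 8 of Slc25a5 lie at 0.71 to 0.86, and no carrier has probe sets called in opposite directions.

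Carriers whose substrates are less settled held the largest fall. Slc25a45 read 9.48, 9.83 and 9.80 without injection and 8.37, 8.88 and 8.80 with it. Groups were well apart and the gene fell 2.03-fold (-1.02 ± 0.15, SE, adjusted p = 0.0032). Slc25a48 read 7.07, 6.96 and 7.10 without injection and 6.48, 6.58 and 6.49 with it. It fell 1.44-fold (-0.53 ± 0.07, SE, adjusted p = 0.002), and its second probe set read -0.21 and did not pass. The calls of Slc25a45, Slc25a48 and Slc25a17 held under all alternatives that could be run. Slc25a46, which acts in mitochondrial shape and lipid exchange, rose by 0.31 ± 0.07 (SE, adjusted p = 0.0198) and lost its call on leaving out any 1 of the not-injected arrays (limma adjusted p 0.0579 to 0.0668) or without variance moderation (limma adjusted p = 0.0551). Its second probe set read 0.16 and did not pass, and the mean of both was 0.24 and did not pass (limma adjusted p = 0.0546).

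Slc25a47, a carrier made mainly in liver, read 0.25 (95% confidence interval 0.04 to 0.47), Slc25a35 0.09 (-0.12 to 0.29) and Slc25a53 -0.18 (-0.43 to 0.06), and none of the 3 passed. Slc25a47 is the next protein-coding gene to Slc25a29 on chromosome 12 in GRCm38.p6, and these were the only measured carriers that neighbour each other. Among the 8 lower carriers, 5 had a difference below the poly-A control median of -0.44 and 3 lay between it and 0.

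Genes that work beside the carriers were counted from lists of known partners. Whether their calls hold under the alternatives tried for the carriers was not examined. Some were narrow, with Agk of the import list at limma adjusted p = 0.0496 and Samm50 of the outer membrane list at 0.0445. The machinery that brings carriers into the inner membrane had 4 of 9 genes higher and 0 lower, against 14.2% higher and 13.9% lower over all genes. Timm10, a chaperone of the intermembrane space, rose by 0.70 ± 0.06 (SE, adjusted p = 0.000473), its relative Timm8b by 0.33 and Timm22, the insertion channel, by 0.30. The list was not uniform, as Timm9, Timm29 and Timm10b read -0.23, -0.18 and -0.17 and did not pass. Of 10 outer membrane channels and import receptors 6 were higher and 0 lower. The porins Vdac2 and Vdac1 rose by 0.64 and 0.24 and the receptor Tomm20 by 0.56. The porin Vdac3 read 0.01 and the receptor Tomm70a -0.22, and neither passed. Of 8 other inner membrane transporters 1 was higher (12.5%, near the 14.2% of all genes) and 2 were lower (25%, against 13.9%). The cation exchanger Letm1 rose by 0.34, while Abcb10, a transporter with a role in heme synthesis, fell by 0.72 and Sfxn2 of the sideroflexin family fell by 0.50. Of the 4 measured family members named otherwise, Ucp3 and Mtch2 were higher (0.50 and 0.21) and 0 were lower.

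The enzymes on either side of the carriers were counted in the same way, against 14.2% higher and 13.9% lower over all genes. In the malate-aspartate and glycerol phosphate shuttles 2 of 6 genes were higher and 1 lower. The mitochondrial enzymes Mdh2 and Gpd2 rose by 0.71 and 0.53, and the cytosolic glycerol phosphate dehydrogenase Gpd1 fell 2.46-fold (-1.30 ± 0.11, SE, adjusted p = 0.000413). The rest did not divide by compartment. Cytosolic Got1 and Mdh1 read 0.67 and 0.09 and mitochondrial Got2 read -0.17, and none of these passed. In the carnitine shuttle 2 of 5 were higher and 0 lower, Cpt1a by 0.42 and the plasma membrane carnitine transporter Slc22a5 by 0.63. Of 5 urea cycle enzymes 0 were higher and 2 lower, with Nags, which makes the activator of the cycle, at -0.78 and arginase, encoded by Arg1, at -0.71. All 5 measured genes of a list drawn around citrate export were called, Aco1 only narrowly (-0.19, limma adjusted p = 0.0486). Citrate synthase, encoded by Cs, rose by 0.44, and 4 others fell. The largest of these falls was that of ATP citrate lyase, encoded by Acly (-0.67), with malic enzyme Me1 at -0.48 and Idh1 at -0.31. The citrate carrier Slc25a1 and the aspartate/glutamate carrier Slc25a12 were not analysed here.

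**Figure D4:**
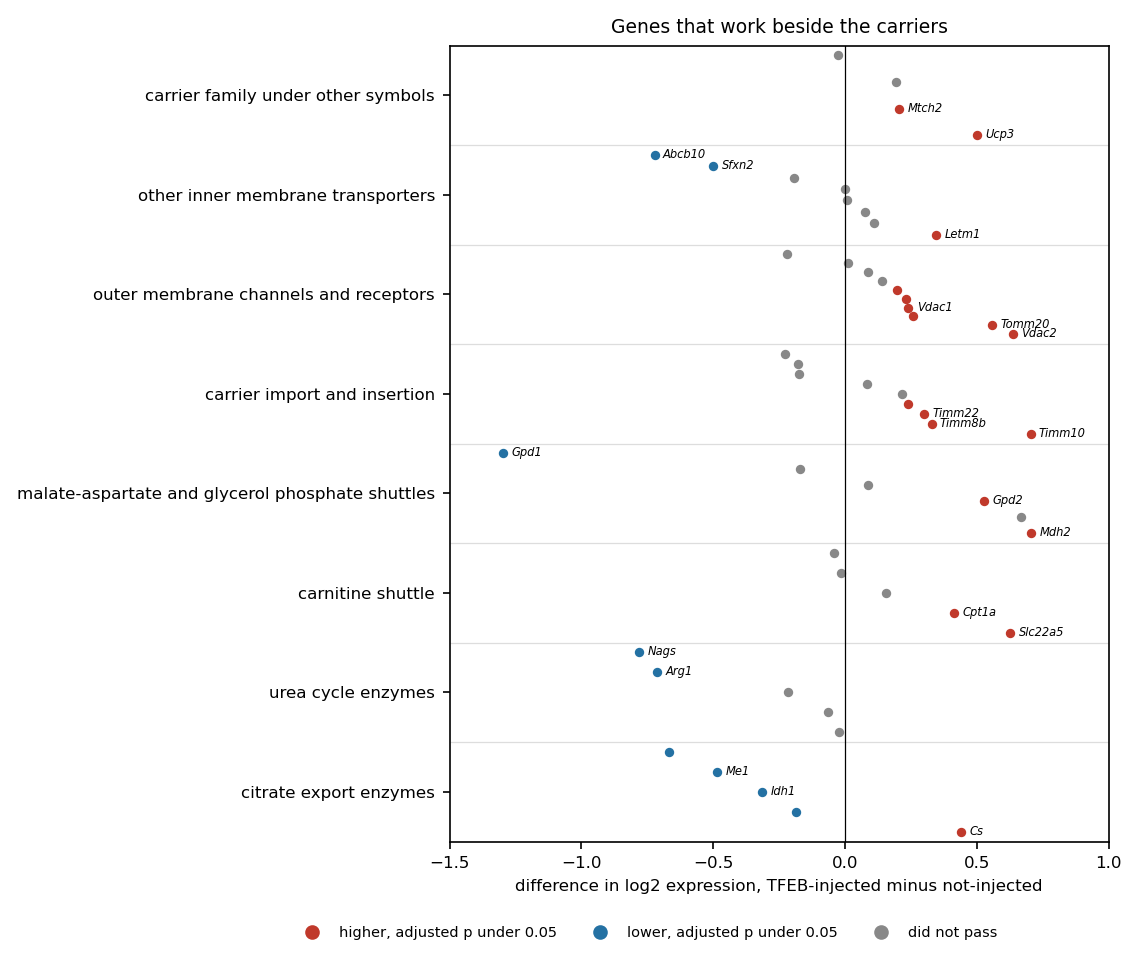
Difference in log2 expression (injected minus not-injected, horizontal axis) of genes that work beside the carriers, 1 point per gene and 1 row per list, with up to 3 called genes of the smallest p named in each list. Red passed as higher, blue as lower and grey did not pass. Called genes of the import and outer membrane lists are all higher (4 of 9 and 6 of 10), and those of the urea cycle list are all lower (2 of 5). Over all genes 14.2% were called higher and 13.9% lower.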

How the data were processed

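The authors deposited log2 expression values per probe set, which per the submitters' processing notes involved RMA and the R package affy (no version named). RMA usually equalises the arrays, which hides any shift shared by all transcripts. No detection calls were used, and precision is limited by the number of arrays. Of 22690 probe sets 20380 had 1 gene symbol in the platform annotation, 691 several, 1555 none, and 64 were controls. Where several probe sets named a gene, the one of highest mean level was used. All 33 carriers matched RefSeq gene identifiers with 0 changed symbols.

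Differences were fitted with limma 3.58.1 (R 4.3.3), lmFit and eBayes, over 12393 genes without covariate or filter, two-sided. Tables and plots used Python 3.11.15. On simulated data for the same comparison and genes, 200 of the 12393 genes were changed. Of these, 64% of those changed by 0.5 and 96% of those changed by 1 (log2) were called. In the livers 3486 genes were called, and recovery with that many changed genes was not tested. The labels call the arrays biological replicates. Members and lists were chosen with earlier results of these data known. Array values are given for the 10 called carriers with the largest difference and any of 2-fold or more. Those of other carriers were chosen after their values were seen. In each partner list up to 3 called genes of smallest p are named. Other genes of these lists were named after their values were seen.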

Additional observations from a re-analysis of the deposited data

How the results depend on the processing

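Over 15 alternatives the called carriers kept their direction in all 209 refitted values and their call in 178, and 6 of the 14 kept it throughout. Without variance moderation 3 carriers were higher and 5 lower, with 1881 genes called in all. With every probe set fitted separately 5302 of 20380 probe sets were called. This alternative judged each carrier by its probe set of smallest p, so it could hardly take a call away. Leaving out each array in turn gave 3 to 8 higher carriers, 5 to 8 lower carriers and 1973 to 4378 genes called. Among carriers that did not pass, the sign changed in leaving out arrays for Slc25a14 (-0.085 to 0.00067), Slc25a28 (-0.061 to 0.064), Slc25a44 (-0.17 to 0.010) and Slc25a2 (-0.17 to 0.00050). The cause was not tested. Another 5 that did not pass were called in at least 1 alternative, and the median over carriers stayed within -0.07 to -0.02. With the replicate number as a block 6 carriers were higher and 7 lower, with 3348 genes called. Slc25a13 (adjusted p = 0.0576) and Slc25a30 (0.057) lost their call under this block and Slc25a24 gained one (0.0312). Deviations of same-numbered arrays correlated at 0.14, 0.06 and 0.01 across genes, and not-injected replicate 2 correlated better with injected replicate 3 (0.08), so the numbers were not taken as pairs. The number of arrays limits small changes, and low values such as those of Slc25a2 are compressed.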
